A study of Drosophila melanogaster and Drosophila virilis with 60 samples.

Results

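The synaptic vesicle release machinery of Drosophila melanogaster was followed here through 10 genes, chosen by name: brp, Syt1, nSyb, Syx1A, Snap25, cpx, Rop, unc-13, cac and the neuronal gene elav. All 10 were among the 14127 genes of the table, and all 10 varied between libraries and entered the tests, which covered 14047 genes. Each had at least 4 counts in every library. The study compared gene expression before, during and after metamorphosis in whole animals, and its purpose was to describe how expression changes through pupal development. Poly(A) RNA came from wild-type Oregon-R animals reared at a constant temperature, with no allele, transgene or treatment in any group, in 10 stages of 3 libraries each. The stages were embryos aged 10 h, larvae, pupae at P1, P2, P3, P4 and P5 (the first visible stages after the puparium forms), pupae aged 24 h, pupae aged 48 h, and adult males aged 5 d, called imago. Each library was a pool of whole animals labelled as a biological replicate. Sexes were not separated before the adult stage, so the imago differs from the others in sex as well as in age, and these cannot be told apart. The 3 larval libraries were 1 each of the 1st, 2nd and 3rd instar and are not replicates of 1 age. The 2nd instar, which the methods leave out for its quality, was not tested, so 29 of the 30 libraries entered the comparisons.

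Synaptic vesicles release transmitter when a SNARE on the vesicle (nSyb, neuronal synaptobrevin) zippers with SNAREs of the plasma membrane (Syx1A, a syntaxin, and Snap25). Rop, the Sec1/Munc18 protein, and unc-13, the Munc13 priming factor, help the SNAREs assemble, cpx (complexin) clamps and assists the assembled complex, and calcium that enters through the channel encoded by cac is sensed by Syt1 (synaptotagmin). Bruchpilot, the product of brp, is a scaffold of the active zone, and elav encodes an RNA-binding protein of neurons that is widely used to mark them. During metamorphosis many larval neurons prune or die and the adult nervous system is wired, with most adult synapses formed late in pupal life.

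On the BDGP6.54 annotation, elav (FBgn0260400) lies at X:509235-523226 (minus strand) and cac (FBgn0263111) at X:11931280-11985087 (minus strand). The SNARE genes are nSyb (FBgn0013342) at 3L:1630348-1637752 (minus strand), Snap25 (FBgn0011288) at 3L:24074180-24299205 (plus strand) and Syx1A (FBgn0013343) at 3R:24101600-24105763 (minus strand). Among their regulators, Rop (FBgn0004574) lies at 3L:4136359-4138996 (minus strand), cpx (FBgn0041605) at 3R:4280221-4304604 (plus strand) and unc-13 (FBgn0025726) at 4:867824-912331 (minus strand). Syt1 (FBgn0004242) is at 2L:2772327-2799979 (minus strand) and brp (FBgn0259246) at 2R:9503765-9541565 (plus strand). Exons of Syx1A overlap eIF4EHP on the same strand, so reads in the shared stretch could be assigned to either gene. Exons of elav overlap arg, and those of unc-13 the pseudogene CR43361, both on the opposite strand. The library kit keeps strand, but whether the authors' counting used it is not given in the sources used here.

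Levels are given as normalized counts, that is, recovered counts divided by the size factor of the library, which is the scale of the deposited values. Recovered totals were 7350353 to 13434700 counts per library. Differences are on the deposited variance-stabilized log2 scale, which compresses changes between low values, and adjusted p-values are from limma with Benjamini-Hochberg adjustment over all 14047 genes. A change is said to have passed when its adjusted p was under 0.05. The 1st and 3rd instar libraries differed widely from each other, and their spread enters the error of every comparison, so that each step without larvae was also fitted with the larval libraries left out. The size factor of the 3rd instar was 0.335, against 0.792 to 1.80 outside the larvae, while its total was the highest of all. Scaling to total counts was tried in voom, a limma fit of the recovered counts, so that results given with total counts differ from the main ones in the fit as well as in the scaling. Within voom, going from the authors' size factors to total counts moved the median gene by -1.31 (log2) in larvae against the other stages, by 0.68 in embryos and by 0.35 at P5. It also moved the share of higher genes among those that passed, in the step from embryo to larvae from 62.2% to 22.3% and in the step from larvae to P1 from 51.5% to 79.4%. In whole animals, fewer neurons and less RNA per neuron cannot be told apart.

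The 10 genes did not follow 1 course. In the embryo elav was at its highest, nSyb, Snap25 and cpx were highest in the imago, Syt1 was high in larvae and from P1 to P3, and Rop varied least. Divided by the median length of the annotated transcripts, elav led in the embryo with 795 normalized counts per kb, followed by Rop with 482, and Snap25 was lowest with 7.75. At P1 Rop led with 505 per kb and Syt1 came next with 284. In the imago nSyb (388 per kb), Rop (385) and cpx (373) were close together, Snap25 (108) and Syt1 (105) came next, and cac was lowest with 13.6. These orders depend on the length used. The median transcript of elav is 2553.5 bp and its longest 10506 bp, and those of cpx are 3628 and 9682 bp. Which transcripts were expressed was not tested.

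**Figure D1:**
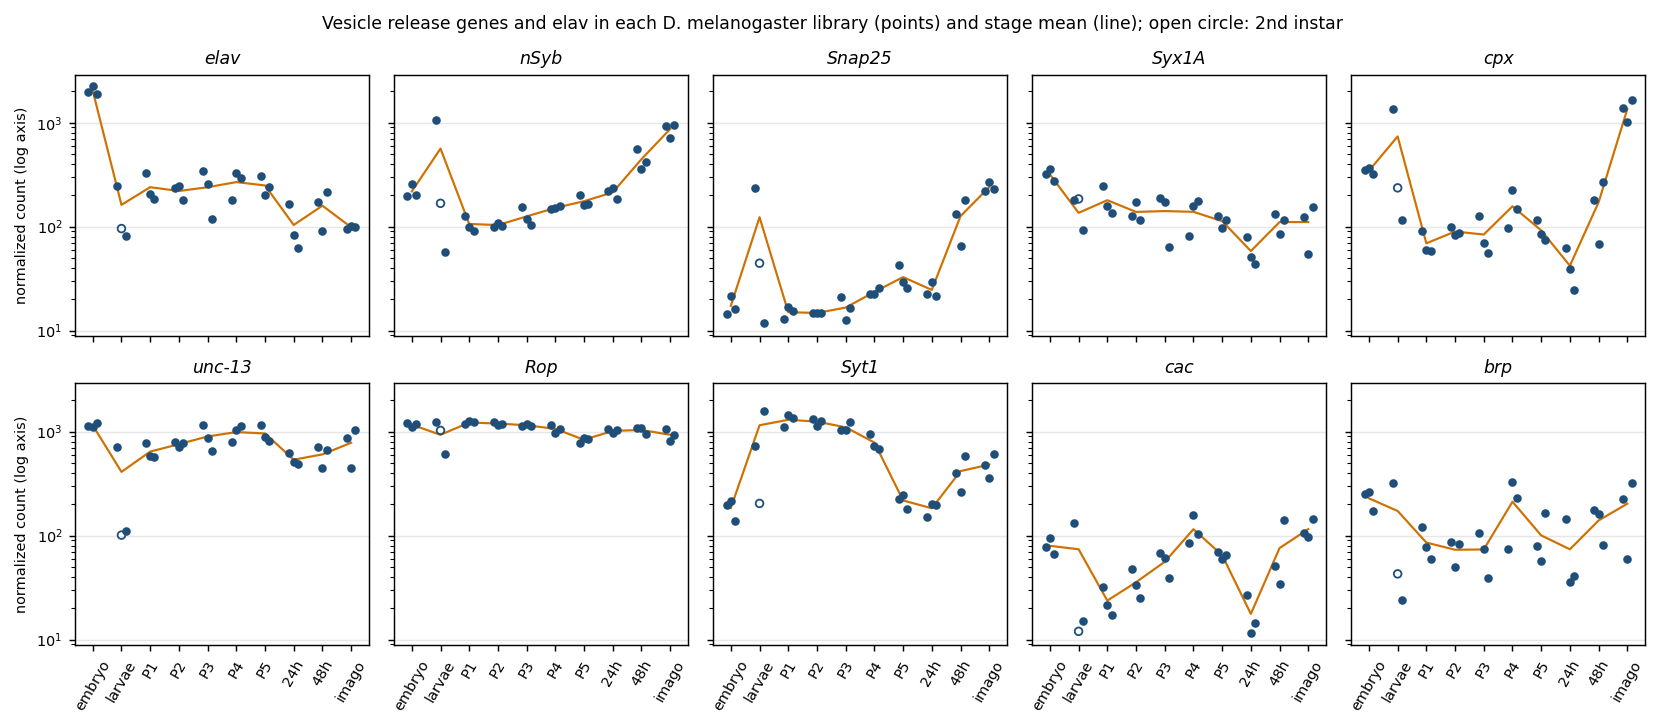
Normalized count (log axis) of each gene in every library by stage; points are libraries, the line joins stage means without the 2nd instar, which is the open circle. In the embryo elav stands at 1880 to 2235 and in the imago at 95.6 to 102, while cpx in the imago stands at 1017 to 1646.

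The neuronal marker elav had normalized counts of 1979, 2235 and 1879.8 in the 3 embryo libraries. The 1st instar had 244 and the 3rd had 80.7, so that both larval libraries were below every embryo library. From embryo to larvae elav fell (log2 difference -3.55, SE 0.39, adjusted p = 4.08e-08), the largest change of any member at any step. Between P1 and P5 its libraries lay between 119 and 343 and no step passed. At 24 h the values were 166, 82.7 and 62.9, all below the P5 values of 306, 199.5 and 243. The fall from P5 to 24 h passed (log2 difference -1.12, SE 0.35, adjusted p = 0.037) but was lost in the fit without P5 replicate 1 (-0.98, adjusted p = 0.166), and in those without P5 replicate 3, 24 h replicate 2 or 24 h replicate 3. With the larval libraries left out of the fit it passed (adjusted p = 0.0107). The imago had 95.6, 102 and 98.2, and these 3 libraries agreed more closely than those of any other stage of elav. Against the mean of the other 9 stages elav was higher in the embryo (log2 difference 3.30, SE 0.26, adjusted p = 1.34e-10) and lower at 24 h (log2 difference -1.14, SE 0.26, adjusted p = 0.0011) and in the imago (log2 difference -1.12, SE 0.26, adjusted p = 4.98e-04). In the order of its stage means the embryo came first with no overlap with the next stage, and all other neighbours in the order overlapped.

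Among the SNARE genes, nSyb, which encodes the vesicle SNARE, was lowest at P2 with 100.3, 108 and 102 and highest in the imago with 934, 719 and 958. The values in between were 202, 161 and 165 at P5, 222, 237 and 183 at 24 h and 562, 357 and 418 at 48 h. All 48 h libraries were above all 24 h libraries, and all imago libraries above all 48 h ones. The steps from 24 h to 48 h (log2 difference 0.94, SE 0.47, adjusted p = 0.135) and from 48 h to imago (log2 difference 0.93, SE 0.47, adjusted p = 0.0975) did not pass in the fit with the larvae. Without the larval libraries the error was smaller and both passed (0.94, SE 0.16, adjusted p = 3.94e-05 and 0.93, SE 0.16, adjusted p = 1.91e-05). Against the other 9 stages nSyb was higher in the imago (log2 difference 2.06, SE 0.35, adjusted p = 1.54e-05), and this held under every alternative tried.

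The plasma membrane SNARE gene Snap25 followed nSyb closely: over the 10 stage means their Pearson r was 0.95, the highest of the 45 pairs of members. At P2 its normalized counts were 14.7, 14.9 and 14.7, or 14 to 17 counts a library, and at 24 h they were 22.8, 29.5 and 21.7. By 48 h the libraries had 134, 65.6 and 179.8, and in the imago 221, 270.2 and 229. The groups did not overlap at either step. From 24 h to 48 h Snap25 rose (log2 difference 1.50, SE 0.39, adjusted p = 0.00479), a call that held under every alternative. The further difference to the imago did not pass in the main fit (log2 difference 0.86, SE 0.39, adjusted p = 0.0645). It passed in limma with the larval libraries left out (adjusted p = 3.91e-04) and with only the libraries of the 2 stages (adjusted p = 0.0362). In voom with the authors' size factors it passed as well (1.01, adjusted p = 0.0193), and in limma without 48 h replicate 3 (1.11, adjusted p = 0.0327). Snap25 was higher than in the other stages at 48 h (log2 difference 1.25, SE 0.29, adjusted p = 0.00105) and in the imago (log2 difference 2.20, SE 0.29, adjusted p = 3.86e-07).

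Syx1A, the syntaxin of the plasma membrane, had another course. Its embryo libraries had 323, 355 and 277 normalized counts and exceeded all others. The lowest stage was 24 h with 80.1, 50.7 and 44.1, and the imago had 123, 54.3 and 155. Syx1A was higher than in the other stages in the embryo (log2 difference 1.23, SE 0.24, adjusted p = 8.42e-05) and lower at 24 h (log2 difference -0.99, SE 0.24, adjusted p = 0.00196). From 24 h to 48 h the difference was 0.69 and did not pass (adjusted p = 0.107), and no difference from the other stages passed in the imago (log2 difference -0.30, SE 0.24, adjusted p = 0.274). Over the 10 stages its means followed those of elav (r = 0.89) and not those of nSyb (r = -0.25). These correlations are over 10 stage means that share libraries and depth, and are given as a description.

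Among the genes that act on the SNARE complex, cpx had the widest range of the 10 genes, 4.28 on the log2 scale between its lowest and highest stage means, wider than in 80.5% of all genes. Its embryo libraries had 354, 364 and 318 normalized counts. After pupariation it was low, with 90.1, 59.1 and 58.3 at P1 and 62.4, 39.3 and 24.6 at 24 h. The 48 h libraries had 180.2, 67.9 and 267 and the imago 1393, 1017 and 1646. All 48 h libraries exceeded all 24 h libraries, though replicate 2 only narrowly. The rise from 24 h to 48 h passed (log2 difference 1.40, SE 0.50, adjusted p = 0.0375) and was lost in the fits without 24 h replicate 2 or 3 or 48 h replicate 1 or 3, lowest without 48 h replicate 3 (1.05, adjusted p = 0.196). From 48 h to imago cpx rose again (log2 difference 2.88, SE 0.50, adjusted p = 3.12e-05) under every alternative, and it was the only member whose last step passed in the main limma fit. Against the other stages it was higher in the imago (log2 difference 3.09, SE 0.38, adjusted p = 9.90e-08) and lower at 24 h (log2 difference -1.66, SE 0.38, adjusted p = 0.00108).

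Rop was the opposite case. Outside the 3rd instar its normalized counts lay between 784, in 1 P5 library, and 1255, in 1 P1 library. The range of its stage means was 0.54 on the log2 scale, and only 4.58% of all genes had a smaller one. In the P5 libraries the values were 784, 875 and 844, below all P4 values of 1149, 978 and 1064. Against the other stages Rop was lower at P5 (log2 difference -0.34, SE 0.12, adjusted p = 0.0274), but with total counts this difference was gone (-0.0050, adjusted p = 0.991), and it did not pass without any 1 of the P5 libraries (-0.38 to -0.30).

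The priming factor unc-13 was likewise abundant at most stages. Embryo libraries had 1126, 1113 and 1209 normalized counts, P4 libraries 794, 1048 and 1128 and P5 libraries 1165, 896 and 819. At 24 h the values were 620.3, 506 and 485, all below those of P5. This step did not pass in the fit with larvae (log2 difference -0.79, SE 0.38, adjusted p = 0.202) and passed with the larval libraries left out (-0.79, SE 0.24, adjusted p = 0.0186). In the imago the libraries spread from 447 to 1038. From 24 h to 48 h the difference was 0.14 (adjusted p = 0.827), so that no late rise like that of Snap25 was detected.

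Of the genes for calcium entry and sensing, Syt1 had a course of its own. Embryo libraries had 197, 217 and 139 normalized counts. After pupariation it was high, with 1105, 1449 and 1345 at P1, 1328, 1138 and 1278 at P2 and 1033, 1039.7 and 1229 at P3. The P4 libraries had 947, 729.6 and 679.8 and the P5 libraries 226, 245 and 182. Each P5 library was far below each P4 library, and the fall from P4 to P5 (log2 difference -1.70, SE 0.26, adjusted p = 1.66e-05) held under every alternative. At 24 h the values were still low at 151, 199.7 and 198. They were higher at 48 h (401, 262 and 588) and in the imago (479, 356 and 611), and the rise from 24 h to 48 h passed (log2 difference 1.01, SE 0.26, adjusted p = 0.00391), except in the fit that kept the 2nd instar (adjusted p = 0.0571). The adult and 48 h libraries were below every library of P1 to P4. Against the other stages Syt1 was higher at P1 (1.33), P2 (1.27) and P3 (1.07) and lower in the embryo (-1.60), at P5 (-1.35) and at 24 h (-1.59), with adjusted p from 1.08e-07 to 9.76e-05. These 6 calls held under every alternative.

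The calcium channel gene cac was at 32.0, 21.7 and 17.4 normalized counts at P1, 47.6, 33.8 and 25.3 at P2, 67.7, 61.2 and 38.9 at P3 and 84.4, 157 and 104 at P4, so that all P4 libraries were above all P3 libraries. None of these steps passed in the fit of all stages, and from P3 to P4 the difference was 0.75 (adjusted p = 0.154, or 0.0398 with the larval libraries left out). The P5 libraries had 69.2, 59.5 and 65.5 and the 24 h libraries 27.0, 11.5 and 14.5, or 14 to 32 counts. The fall from P5 to 24 h passed narrowly (log2 difference -1.11, SE 0.36, adjusted p = 0.0489). It was lost without any 1 of the P5 libraries or 24 h replicate 2 or 3, with the value between -1.15 and -0.99. By 48 h cac had 50.7, 34.0 and 143, with replicate 3 far above the others, and the rise passed (log2 difference 1.12, SE 0.36, adjusted p = 0.0216). Without 48 h replicate 3 it was 0.69 and did not pass (adjusted p = 0.192), and it was also lost without 24 h replicate 2 or 3. The low level at 24 h against the other stages (log2 difference -1.06, SE 0.27, adjusted p = 0.0031) held under every alternative.

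No comparison of brp, the active zone scaffold gene, passed in the main fit on the authors' scale. At P4 its libraries had 75.0, 328 and 232 normalized counts, at 24 h 144, 36.0 and 41.2 and in the imago 226, 59.4 and 323. The embryo values of 251, 262 and 171 were the highest on average, and the difference from the other stages there was log2 difference 0.95, SE 0.44, adjusted p = 0.0567. From 24 h to 48 h the difference was 0.82 with SE 0.58 (adjusted p = 0.301). The SE of cac at that step was 0.36. The embryo call depended on the fit. It passed with a common median (1.28, adjusted p = 0.00859), in voom with the authors' size factors (1.14, adjusted p = 0.02) and with total counts (1.92, adjusted p = 0.0034), with all 30 libraries (0.98, adjusted p = 0.049) and without any 1 of 5 libraries, the largest such value being 1.10 without the 1st instar (adjusted p = 0.00855). The difference from embryo to larvae passed with total counts (-3.37, adjusted p = 0.00768) and without the 1st instar (-2.30, adjusted p = 0.00492). Single libraries also decided its other calls. In larvae it passed as lower without the 1st instar (-1.45, adjusted p = 0.0342), from larvae to P1 as lower without the 3rd (-1.63, adjusted p = 0.0411) and in the imago as higher without imago replicate 2 (1.14, adjusted p = 0.0446).

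At the step from 24 h to 48 h 4 of the 10 genes passed, all upwards, when 30.6% of all genes passed in either direction and 18.4% upwards. Of all genes that passed, 60.1% were higher and 35.0% with libraries shifted to a common median, and within voom 59.95% with the authors' size factors and 45.1% with total counts. The 4 members were Snap25, cpx, cac and Syt1, and the median difference of the 10 was 0.88 against 0.10 for all genes. With the larval libraries left out nSyb passed as well. Each of the 10 differences was above 0, from 0.03 for Rop to 1.50 for Snap25. With a common median Snap25, cac and Syt1 passed. With total counts Syt1 and Snap25 passed and cpx and cac did not (adjusted p = 0.209 and 0.106).

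The other pupal steps moved few members. From P1 to P2 and from P2 to P3 no member passed, when 5.97% and 6.67% of all genes did, and from P3 to P4 again none of 10 when 19.4% did. At an unadjusted p under 0.05 the count in limma was 0, 0 and 1 (cac), and voom on the recovered counts with total counts called none and also had 0, 0 and 1 unadjusted. From P4 to P5 only Syt1 of the 10 passed, against 18.7% of all genes. Of all genes that passed there in voom, 42.5% were higher with the authors' size factors and 65.2% with total counts, while the fall of Syt1 held under both. From P5 to 24 h 2 of 10 passed (cac and elav, both lower, and neither with total counts, at adjusted p = 0.082 and 0.0904), against 11.7% of all genes in either direction and 7.36% lower, and with the larval libraries left out 4 of 10 passed, unc-13 also lower and Rop higher (0.28, SE 0.10, adjusted p = 0.0449). At the last step, 48 h to imago, only cpx of the 10 passed when 58.5% of all genes did, and nSyb and Snap25 passed too with the larval libraries left out.

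**Figure D2:**
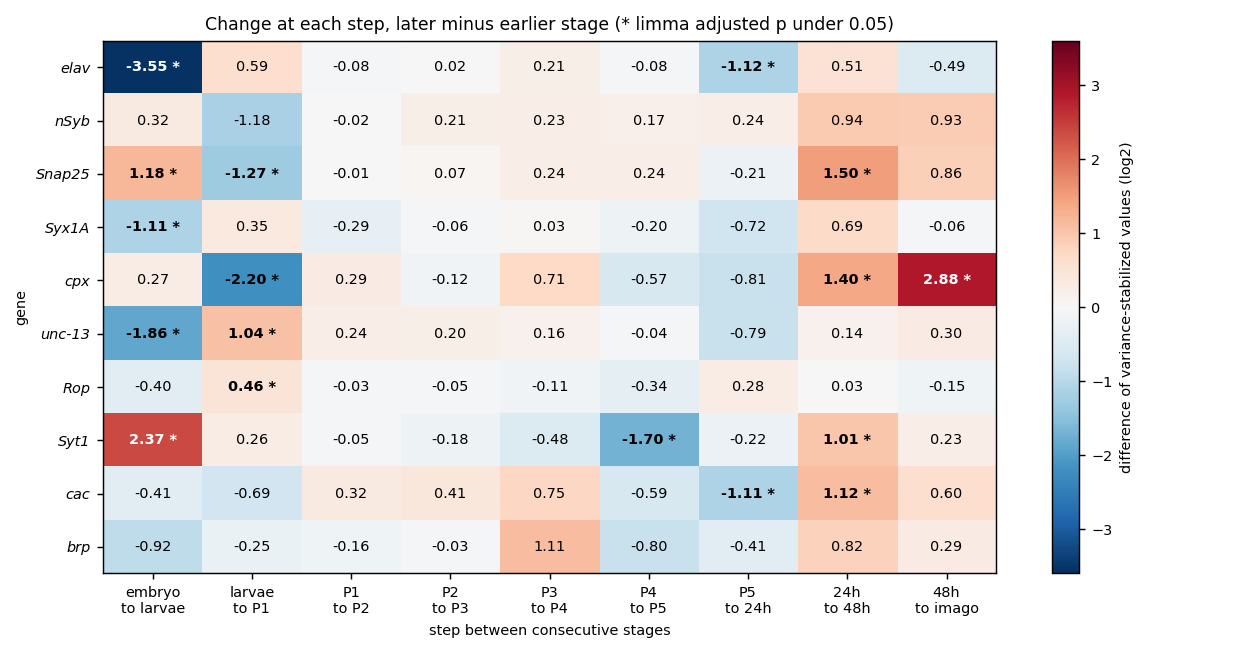
Difference of the variance-stabilized log2 values at each of the 9 steps between consecutive stages (later minus earlier) for each gene; colour and number give the difference, a star marks adjusted p under 0.05 in limma. The column from 24 h to 48 h holds 4 starred rises, and the columns from P1 to P4 hold none.

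Against the mean of the other 9 stages, 6 of the 10 genes passed in the embryo (4 higher, 2 lower), when 70.4% of all genes did, and 5 in the imago (4 higher, 1 lower), when 72.1% did. With a common median and with total counts 8 members passed in the embryo, 7 higher and 1 lower, when 72.4% and 73.7% of all genes did. On the authors' scale elav, Syx1A, cpx and unc-13 were higher in the embryo and Syt1 and Snap25 lower, when 27.6% of all genes were higher. In the imago cpx, Snap25, nSyb and cac (0.85, adjusted p = 0.00785) were higher and elav lower. When libraries were shifted to a common median the imago count was 8, with Syt1, Syx1A, Rop and unc-13 lower as well and cac no longer past the threshold, and the share of higher genes among all that passed went from 60.7% to 35.5%. In the embryo that share was 40.9% in voom with the authors' size factors and 59.8% with total counts. Snap25 in the embryo (-0.70 on the authors' scale) had -0.36 with a common median and with total counts and did not pass (adjusted p = 0.241 and 0.611). At 24 h 5 members passed, none higher and 5 lower (Syt1, cpx, elav, cac and Syx1A), when 39.5% of all genes passed and 24.6% were lower. The median difference of the 10 genes at 24 h was -0.83, against -0.10 for all genes. At P1 5 passed (36.6% of all genes), Syt1 higher and nSyb, Snap25, cpx and cac lower. With total counts only Syt1 passed at P1, and 3 members passed there in voom with the authors' size factors, where the share of higher genes among all that passed was 48.5% and with total counts 53.4%. At P2 3 passed (34.1%), at P3 1 (33.8%), at P4 2 (36.8%), at P5 2 (33.7%) and at 48 h 3 (51.8%). At 48 h nSyb (1.03, adjusted p = 0.0182) and Snap25 were higher and Syt1 (-0.48, adjusted p = 0.0401) was lower. Without 48 h replicate 2 the value of Syt1 was -0.21 and without 48 h replicate 1 that of nSyb was 0.86, and neither passed. At 24 h the calls of cpx and Syx1A were lost with total counts (adjusted p = 0.0523 and 0.0583), with the direction kept. Several calls against the other stages did not pass when 1 library was left out. These were Snap25, cpx and unc-13 in the embryo, nSyb, Snap25, cpx and cac at P1, nSyb and Snap25 at P2, Syt1 and cac at P4 and cac in the imago, with the direction kept in each. The value of cac at P4 was 0.82 and without P4 replicate 2 it was 0.63, and that of cac in the imago without imago replicate 3 was 0.71. In larvae Syt1 and cpx passed as higher and unc-13 as lower, when 68.3% of all genes passed. Without the 3rd instar Syt1 had 0.49 and unc-13 -0.13, without the 1st cpx had -0.28, and with total counts Syt1 had -0.14, none of them past the threshold. Comparisons of 1 stage with the rest share libraries with each other and with the steps.

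The larval values rest on 2 libraries that differ in age. In the 1st instar nSyb, cpx and Snap25 were within or just above the range of the imago libraries, and in the 3rd they were low. The 1st instar had 1072 normalized counts of nSyb, 1359 of cpx and 235 of Snap25. In the 2nd instar they were 168, 236 and 44.5, and in the 3rd 56.8, 117 and 12.0. The 1st instar exceeded the 3rd 19.6-fold in Snap25, 18.9-fold in nSyb, 13.4-fold in brp, 11.7-fold in cpx, 8.89-fold in cac and 6.42-fold in unc-13. The ratio was 3.02 for elav, 2.03 for Rop and 1.94 for Syx1A. As counts per total, scaled to CPM, every ratio was larger, 78.0-fold for Snap25 and 12.0-fold for elav. There nSyb was at 106 CPM (95% interval 98.9 to 113) in the 1st instar, while the 3rd had 1.41 CPM (95% interval 0.851 to 2.21). These exact Clopper-Pearson intervals take recovered counts as reads and cover counting error only, and there is no replicate of any instar and so no test.

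Syt1 alone went the other way on the authors' scale, with 726, 204 and 1578 normalized counts in the 1st, 2nd and 3rd instar. The 3rd instar was 2.17-fold above the 1st on that scale. On the CPM scale the order turned, with 71.8 CPM (95% interval 66.0 to 78.0) for the 1st and 39.3 CPM (95% interval 36.0 to 42.8) for the 3rd instar. Markers of other tissues differed between these libraries. The 4 fat body markers (Lsp2, Fbp1, Fbp2 and apolpp) summed to 11254 normalized counts in the youngest larvae and to 1267950 in the oldest, and the 6 muscle markers to 226831 and 322818. No marker of either list was at 0, and their part in the values of the release genes was not tested.

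**Figure D3:**
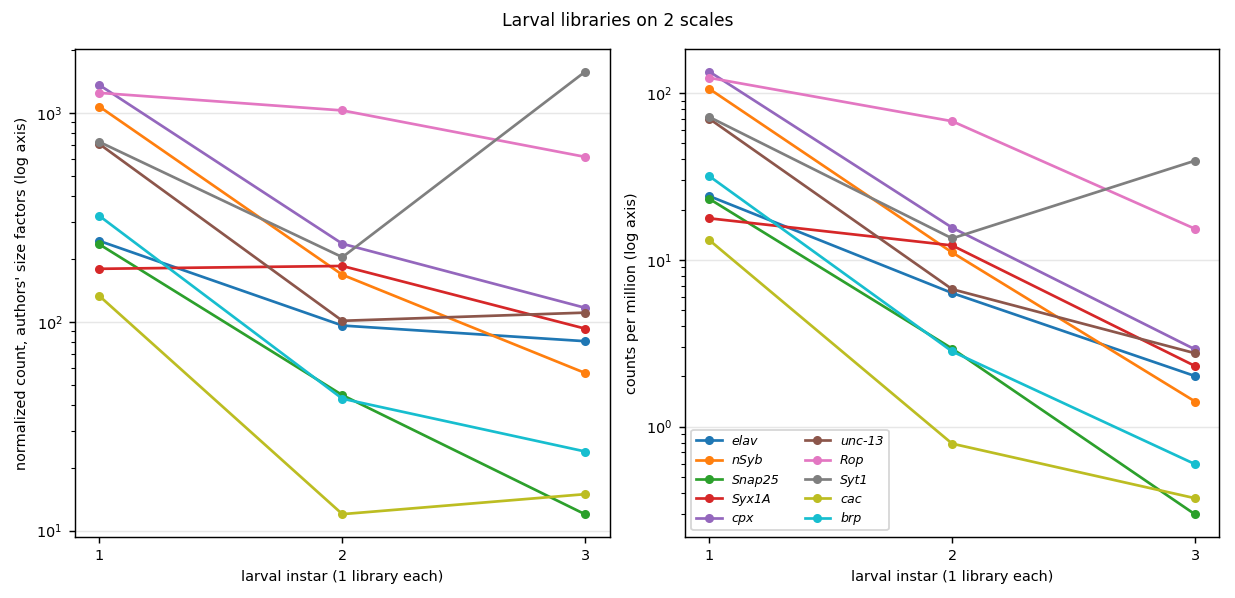
The 10 genes in the single library of each larval instar, as normalized counts (left) and as CPM (right), both on log axes; each line is a gene. On the left Syt1 is higher in the 3rd instar (1578) than in the 1st (726), and on the right it is lower (39.3 against 71.8).

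From embryo to larvae 5 of 10 genes passed when 57.1% of all genes did. Syt1 rose (log2 difference 2.37, SE 0.29, adjusted p = 1.74e-07), Snap25 was higher (log2 difference 1.18, SE 0.44, adjusted p = 0.0238), and Syx1A (-1.11, adjusted p = 0.0106), unc-13 (-1.86, adjusted p = 5.30e-04) and elav were lower. The Snap25 libraries overlapped, with 14.3, 21.6 and 16.0 in embryos and 235 and 12.0 in larvae. Its difference turned to -0.22 without the 1st instar and to -0.35 with total counts. Without the 3rd instar, Syx1A (-0.72) and unc-13 (-0.67) did not pass. From larvae to P1 4 of 10 passed (61% of all genes): cpx (log2 difference -2.20, SE 0.56, adjusted p = 0.00183) and Snap25 (-1.27, adjusted p = 0.0154) lower, and Rop (0.46, adjusted p = 0.0274) and unc-13 (1.04, adjusted p = 0.0358) higher. In voom with total counts 5 members were higher (Rop, Syt1, Syx1A, elav and unc-13) and 0 lower. Of all genes that passed there, 79.4% were higher. In that fit cpx had -1.18 (adjusted p = 0.31) and Snap25 -0.37 (adjusted p = 0.752). Each of the 4 calls on the authors' scale rested on 1 instar. Without the 1st instar Snap25 turned to 0.13 and cpx to -0.58, and without the 3rd Rop turned to -0.027 and unc-13 to -0.15, and none of the 4 passed.

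Most of these genes have relatives that serve membrane fusion or RNA binding in other places, and 27 such paralogs were compared beside them. From 24 h to 48 h 3 of the 27 rose and none fell, when 18.4% of all genes rose, with a median difference of 0.14 against 0.88 for the 10 members. The 3 were Rbp9 (log2 difference 2.62, SE 0.23, adjusted p = 2.05e-09), Syt12 (log2 difference 1.81, SE 0.26, adjusted p = 6.47e-06) and stac (log2 difference 0.48, SE 0.16, adjusted p = 0.0242). From 48 h to imago 37.6% of all genes rose, and 9 of 27 paralogs did, a share near that of all genes, while 1, Syt12, fell (-0.66, adjusted p = 0.0328).

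Syb, a synaptobrevin expressed in many tissues, did not share the late course of nSyb. Its normalized counts were 2072 to 2390.1 at 24 h, 1745 to 2219.7 at 48 h and 1227 to 1991 in the imago. Syb was lower in the imago than in the other stages (log2 difference -0.59, SE 0.13, adjusted p = 2.30e-04), where nSyb was higher. Snap24 (-0.51, adjusted p = 6.53e-04) and Snap29 (-0.60, adjusted p = 5.84e-04) were also lower in the imago, where Snap25 was higher by 2.20. Snap24 had fallen earlier, from P3 to P4 (log2 difference -0.80, SE 0.16, adjusted p = 6.97e-04).

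Of the other synaptotagmins, Syt4, whose product is a synaptotagmin found in neurons and muscle, did not pass at any step, and its imago libraries had 213 to 255 normalized counts. Syt7 (log2 difference 0.87, SE 0.36, adjusted p = 0.04), Sytalpha (log2 difference 1.62, SE 0.25, adjusted p = 7.69e-06), Sytbeta (0.90, adjusted p = 0.00863) and Syt14 (0.56, adjusted p = 0.0369) rose from 48 h to imago, while Syt1 did not pass there (0.23, adjusted p = 0.462). None of the 6 other synaptotagmin genes was higher than in the other stages at P1, P2 or P3, where Syt1 was, and Syt7 and Syt12 were lower at P1 (-0.89 and -0.70) and P2 (-0.77 and -0.57).

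The other calcium channel genes, Ca-alpha1D for the L-type and Ca-alpha1T for the T-type channel, rose from 48 h to imago (log2 difference 1.80, SE 0.54, adjusted p = 0.00658 and log2 difference 1.27, SE 0.47, adjusted p = 0.0237). Ca-alpha1D fell from P4 to P5 (log2 difference -2.17, SE 0.54, adjusted p = 0.00494). Its normalized counts were 59.8 to 162 at P4 and 0.0 to 18.6 at P5, where 1 library had no count, so that the fitted difference is no bound. The Munc13-4 relative stac, known for its part in the fusion of tracheal tubes, swung between P1 and 24 h, lower from P1 to P2 (-0.96), higher from P3 to P4 (0.89), lower to P5 (-1.45) and higher to 24 h (0.80), with adjusted p from 1.60e-07 to 0.00112.

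In the elav family the genes diverged. For fne, which encodes a related neuronal protein, the embryo libraries had 780.1 to 1002 normalized counts and the fall to larvae passed (log2 difference -2.73, SE 0.70, adjusted p = 0.00185), as for elav. Its imago libraries had 86.1 to 154. Rbp9, another gene of the family, ran from 54.8 to 77.6 in the embryo and 61.5 to 96.9 at 24 h to 420.3 to 779 at 48 h and 1020.3 to 1449 in the imago. It rose again from 48 h to imago (log2 difference 0.97, SE 0.23, adjusted p = 7.70e-04). The embryo to imago order was thus opposite in elav and Rbp9.

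**Figure D4:**
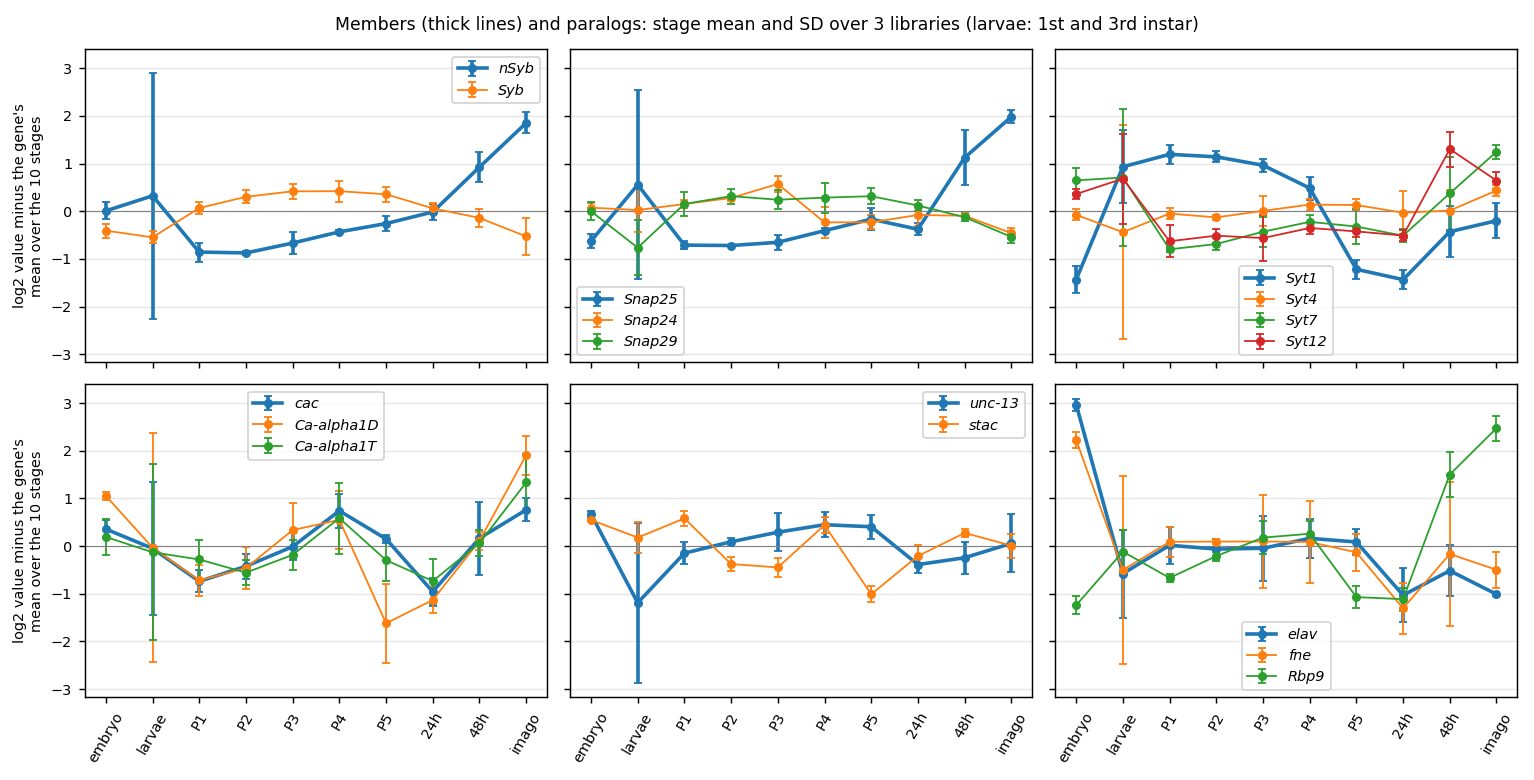
Variance-stabilized log2 value minus the mean of the gene over the 10 stages, for 6 members (thick lines) and their paralogs; points are stage means and bars SD over 3 libraries (in larvae over the 1st and 3rd instar). In the imago nSyb and Snap25 are high while Syb and Snap24 are not, and elav is low while Rbp9 is at its highest.

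Among the relatives of Syx1A and Rop that act in other membrane traffic, Syx13, an endosomal syntaxin, rose from larvae to P1 (log2 difference 2.05, SE 0.20, adjusted p = 8.04e-09) and fell from P1 to P2 (-0.61, adjusted p = 0.0424) and from P2 to P3 (-0.64, adjusted p = 0.0273). Syx4 (log2 difference 1.68, SE 0.21, adjusted p = 2.72e-07) and Syx6 (log2 difference 1.00, SE 0.13, adjusted p = 8.10e-07) rose from 48 h to imago. Slh, Vps45, car and Vps33B, the other Sec1/Munc18 genes, did not pass from 24 h to 48 h or from 48 h to imago, nor did Syx5, Syx7, Syx8, Syx13, Syx16, Syx17 and Syx18. Of the 27 paralogs, 10 were higher and 3 lower from embryo to larvae, when 57.1% of all genes passed in either direction, and 6 were higher and 7 lower from larvae to P1, when 61% did. As for the members, larval steps of the paralogs rest on 1st and 3rd instar libraries that differ in age.

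Other genes of the presynaptic terminal were taken from lists by role. Their counts are read against the 18.4% of all genes that rose from 24 h to 48 h and the 37.6% that rose from 48 h to imago, and shares near these are no result about a list. Of 16 active zone and fusion partners, 3 rose and none fell from 24 h to 48 h, with a median of 0.61 against 0.10 for all genes. They were Rbp, the RIM-binding protein gene (log2 difference 1.55, SE 0.40, adjusted p = 0.00412), Syn, which encodes synapsin (log2 difference 1.31, SE 0.40, adjusted p = 0.0159), and stj, an alpha2delta subunit gene of calcium channels (log2 difference 0.96, SE 0.36, adjusted p = 0.0466). The lowest was Csp, the cysteine string protein gene (-0.24, adjusted p = 0.293). From 48 h to imago 6 of the 16 rose, a share near that of all genes, and none fell (median 0.55, all genes 0.19). The largest was stol (log2 difference 1.38, SE 0.48, adjusted p = 0.0162), and Rim (1.19, adjusted p = 0.0366), Fife (1.25, adjusted p = 0.0289) and comt, the NSF gene (1.21, adjusted p = 0.00255), were among them, while RhoGAP100F, the Syd-1 gene, was lowest (-0.74, adjusted p = 0.218). In the embryo 10 of the 16 were higher than in the other stages and 1 lower, when 27.6% of all genes were higher. From embryo to larvae (1st and 3rd instar) 5 of the 16 fell and 1, alphaSnap, rose (0.80). At that step 57.1% of all genes passed in either direction and 3538 of 14047 were lower, so these counts are no result about the list. The largest fall was that of Cadps, the CAPS gene (log2 difference -2.21, SE 0.41, adjusted p = 6.72e-05).

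Of 8 genes of vesicle recycling, 1 rose from 24 h to 48 h, EndoA, the endophilin gene (log2 difference 0.80, SE 0.22, adjusted p = 0.00788), and 3 rose from 48 h to imago, namely shi, the dynamin gene (log2 difference 0.95, SE 0.25, adjusted p = 0.00188), Synj (0.95) and Dap160 (0.71). These shares are near or below those of all genes. None fell at either step, and the lowest values were those of Synj at the first (-0.24) and AP-2alpha at the second (-0.44). Of 10 genes that make or load transmitters, none rose from 24 h to 48 h and SerT fell (log2 difference -0.54, SE 0.19, adjusted p = 0.0342). From 48 h to imago 4, again a share near that of all genes, rose and none fell: Vmat, the vesicular monoamine transporter gene (log2 difference 2.83, SE 0.46, adjusted p = 1.23e-05), Gad1 (log2 difference 2.72, SE 0.50, adjusted p = 5.71e-05), ple (log2 difference 2.17, SE 0.30, adjusted p = 1.34e-06) and ChAT (log2 difference 1.47, SE 0.43, adjusted p = 0.00486), the last 3 for enzymes that make GABA, dopamine and acetylcholine. The gene ple also serves tanning of the cuticle. Of 6 genes of excitability and adhesion, para, the sodium channel gene, rose from 24 h to 48 h (log2 difference 1.48, SE 0.48, adjusted p = 0.0217) and para (1.14), Sh (1.39) and eag (1.06) rose from 48 h to imago. The lowest there was futsch, which encodes a microtubule-associated protein (-1.54, adjusted p = 0.058).

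Markers of other cells were counted at the same steps. Of all genes 57.1% passed in either direction from embryo to larvae, 61% from larvae to P1 and 18.7% from P4 to P5. The share was 11.7% from P5 to 24 h, 30.6% from 24 h to 48 h and 58.5% from 48 h to imago. Marker counts near these shares are no result about a list. From 24 h to 48 h 4 of 6 muscle markers rose and none fell, the largest being Mlc2 (log2 difference 5.32, SE 0.24, adjusted p = 7.89e-15), and their summed level went from 8000 to 9332 normalized counts in the 24 h libraries to 60233 to 61680 at 48 h. Of 5 neuroblast markers 3 fell there and none rose, and their sum went from 153 to 185 down to 44.5 to 54.5. Of 7 glia markers 1 rose (alrm, 2.10) and 1 fell (wrapper, -1.71) at that step. Between P4 and P5, where Syt1 fell, 5 of 6 muscle markers fell and none rose, the largest fall being that of Mhc (-2.61). Between P5 and 24 h, where cac and elav fell, 4 of 6 muscle markers rose and none fell, 2 of 5 neuroblast markers fell and none rose, and of the glia markers 1 rose and 1 fell. Earlier, from P4 to P5, 1 of 7 glia markers fell, Gs2 (-2.34), and the other 6 did not pass. The glial sum, which includes Gs2, went from 5715 to 6050 at P4 down to 2490 to 3041 at P5. From 48 h to imago 4 of the 7 glia markers rose, Gs2 most (3.39), and moody fell (-0.46). Over the same step 3 of 5 male germline markers rose and none fell, topi most (1.11), and their sum went from 281 to 429 up to 634 to 756. Of 4 fat body markers 3 fell there and none rose, Fbp1 most (-6.80). From embryo to larvae, where elav fell, all 5 neuroblast markers fell, from mira (-5.20) to ase (-2.82). At that step 4 of 7 glia markers fell and 1 rose, and 4 of 6 muscle and 3 of 4 fat body markers rose and none fell. From larvae to P1 5 of 6 muscle markers fell and none rose, 4 of 5 neuroblast and 3 of 4 fat body markers rose and none fell, and of the glia markers 1 rose and 2 fell. Larval means join the 1st and 3rd instar, whose fat body sums were 11254 and 1267950. The embryo libraries had 11268 to 11821 and the P1 libraries 848516 to 986815. Against the 3rd instar alone the fat body sum was thus lower at P1, and against the 1st it was higher. Apart from the male germline gene sa in the embryo, none of the markers in these lists was at 0 in all libraries of a stage. The part of these changes in the values of the release genes was not tested.

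Some libraries stood apart from others of their stage in most of the genes. At 48 h replicate 2 was the lowest of its stage in 8 of the 10 genes, at P4 replicate 1 in 8 and in the imago replicate 2 in 8, while at P3 replicate 1 and in the embryo replicate 2 were the highest in 8. Over 27 libraries without larvae, deviations from the stage mean correlated with those of elav with r = 0.83 in cpx, 0.78 in Syx1A, 0.76 in cac, 0.64 in unc-13, 0.61 in nSyb, 0.48 in brp and 0.45 in Snap25. The values were -0.08 in Syt1 and -0.32 in Rop. Of 7063 genes compared, 2.05% had a higher value than cpx and 61.7% a higher value than Rop. The libraries of a stage share its mean, and the values are a description.

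The genes most like the 9 release genes without elav, by Pearson r with their average over the 10 stage means among 7055 genes of at least median level, were CG8765 (0.95), mRpS5 (0.95), Marf (0.92), nrv3 (0.92) and CG43897 (0.91). Those most like elav were cass (0.98), CG17724 (0.97), Sema1a (0.97), wech (0.97) and fne (0.97). The embryo mean of elav was far above its other stage means and weighs heavily in these values. By rank (Spearman) the same genes had from 0.77 (fne) to 0.90 (wech). For Syt1, a gene singled out after its values had been seen, they were Chd64 (0.94), CG3860 (0.94), CG10062 (0.94), Osbp (0.94) and oxt (0.93).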

How the data were processed

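Gene expression was measured by RNA sequencing of whole-animal pools. Reads were trimmed with fastp, transcripts were quantified with Kallisto against the BDGP6 transcriptome, and the authors summed them to genes and deposited variance-stabilized values (DESeq2) on a log2 scale. This transformation compresses low values. Versions of fastp and Kallisto are not given in the sources used here. The transformation was inverted for each library, with the smallest step taken as 1 count. All values of up to 50 counts came out whole (100%, tolerance 0.02). Kallisto estimates need not be whole, and the recovered totals of 7350353 to 13434700 counts per library are above the read numbers stated for the study, so counts may differ from those of the authors by a rounding or a constant.

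The deposited log2 values were fitted with limma 3.58.1 in R 4.3.3 (intensity trend) over 29 libraries and 14047 genes, leaving out genes whose values did not vary and the 2nd instar. Contrasts set every stage against the average of the remaining 9 and against the preceding stage, at a Benjamini-Hochberg adjusted p of 0.05. Tables were handled with numpy 2.4.6, pandas 2.3.3 and scipy 1.17.1. On simulated data of the P5 to 24 h step with 200 of 14047 genes changed, 13% of 2-fold and 81% of 4-fold changes were called, and 6.93% of the calls were false. The simulation gave all genes the same dispersion, changed none of the genes with low means and gave the larval libraries no added spread. These rates therefore need not hold for the real libraries.

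The members, the lists of other genes and the tests were chosen with earlier results of these data known. The members and their 27 paralogs are named. Of the other lists, the genes with the largest and lowest differences were named, together with other genes that passed, and the 5 genes most like the members. Of 2 listed genes, tomosyn and Trh, no match in the table was found by symbol. The genes stnA and stnB share 1 transcript and may share reads. Alternatives covered the libraries, filters, scaling, fit, replicate block and single libraries left out. Positions were read by gene identifier from the BDGP6.54 annotation, a different release of BDGP6 from that of the authors' transcriptome. The D. virilis table was not used here. No sequences are shown.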

Additional observations from a re-analysis of the deposited data

Results flagged for a closer look

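The 2nd instar library is outside the comparisons, and all 10 genes had reads there, above the 3 counts up to which a value would not have been listed. The recovered counts were 25 for brp, 119 for Syt1, 98 for nSyb, 108 for Syx1A, 26 for Snap25, 138 for cpx, 600 for Rop, 59 for unc-13, 7 for cac and 56 for elav. On the normalized scale nSyb, Snap25 and cpx of the 2nd instar lay between the 1st and the 3rd instar, while Syt1 (204) was lower than in either. With 1 library there is no replicate check.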

How the results depend on the processing

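Of 52 calls of members, 20 held under every alternative, and of 1547 alternative values 1409 kept the call, 129 lost it and 9 turned. Syt1 in larvae turned to -0.14 with total counts (with and without a filter), and Snap25 from embryo to larvae to -0.35 (likewise). Without single libraries cpx in larvae ranged from -0.28 to 2.95, Snap25 from embryo to larvae from -0.22 to 2.58 and from larvae to P1 from -2.67 to 0.13, Rop from larvae to P1 from -0.027 to 0.95 and unc-13 from larvae to P1 from -0.15 to 2.23. The cause was not tested. In the other direction, brp in the embryo did not pass in the main fit and passed with a common median and in voom. The share of all genes called also moved with the fit, in the embryo from 70.4% in the main fit to 73.7% in voom with total counts. Such shares are not given beside the counts below, so a changed count is no result about the members. Members called changed as follows. With all 30 libraries P4 had 1 and P5 to 24 h 1, and with filtered genes P3 had 2 and P5 1. With a common median P4 had 1, P5 1, imago 8, P3 to P4 1 and 48 h to imago 3. With only the libraries of the 2 stages, embryo to larvae had 3, larvae to P1 0, P5 to 24 h 4 and 48 h to imago 3. Voom with total counts, which changes the fit and the scaling, and no filter gave 5 in larvae, 1 at P1, P2, P4, P5 and 48 h, 3 at 24 h, 0 from P5 to 24 h and 2 from 24 h to 48 h. With low counts filtered it gave 5 in larvae, 1 at P1, P2, P5 and 48 h, 3 at 24 h, 8 from embryo to larvae, 0 from P5 to 24 h and 2 from 24 h to 48 h. Chosen after seeing the data, voom with the authors' size factors gave 3 at P1 and 2 from 48 h to imago, and leaving out the larval libraries gave 1 from P3 to P4, 2 from P4 to P5, 4 from P5 to 24 h and 3 from 48 h to imago. Leaving out single libraries gave 3 to 9 in the embryo, 3 to 8 in larvae, 1 to 6 at P1, 1 to 5 at P2, 1 to 6 at P3, 0 to 4 at P4, 1 to 4 at P5, 5 to 7 at 24 h, 1 to 4 at 48 h, 4 to 6 in the imago, 4 to 9 from embryo to larvae, 3 to 6 from larvae to P1, 0 from P1 to P4, 1 from P4 to P5, 0 to 2 from P5 to 24 h, 2 to 4 from 24 h to 48 h and 1 to 3 from 48 h to imago.

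The replicate numbers gave no sign of pairing: deviations of same-numbered libraries had a median correlation of -0.0044 over 126 pairs. Other-numbered libraries had -0.014 over 252 pairs. Single same-numbered pairs ran from -0.61 to 0.48. Deviations within a stage depend on each other, so these values do not settle whether samples were paired. With the replicate block 1 member was called from P5 to 24 h (cac had adjusted p = 0.0548 in limma), and the block moved no other count by over 1.5 times. Snap25 and cac had 4 and 5 counts in the 3rd instar, the library with the highest total.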
